A study of Homo sapiens with 24 samples.

Results

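The 10 genes described here form the circuit that joins the MiT/TFE transcription factors to the lysosomal nutrient sensor. They were named for their known roles, with earlier results of these data known. They were looked up by Ensembl identifier in all 24 count files, each of which listed 60279 genes. The transcription factors are TFE3, TFEB, MITF and TFEC. Folliculin (FLCN) and its partners FNIP1 and FNIP2, the Rag GTPases RRAGC and RRAGD, and PPARGC1A, the gene of the coactivator PGC-1alpha, complete the set. Genes averaging 5 or more counts per library were tested, which left 19997 genes in all and 9 of the 10, without TFEC.

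The libraries came from SW872 cells, a human liposarcoma line, as 8 groups of 3 biological replicates, each a pool of cells stably transduced by retrovirus and selected for the vector. EV carried empty vector, TFE3 full-length TFE3, and YAP-TFE3 the fusion of the N terminus of YAP to the C terminus of TFE3. YAP5SA and TAZ4SA carried forms of YAP and TAZ altered at serines that the Hippo kinases modify, TAZ-CAMTA1 carried the fusion of the N terminus of TAZ to the C terminus of CAMTA1, and CAMTA1 carried the full-length factor. Cells were confluent, except for the CAMTA1 cells and a second set with empty vector, EVsub. The study states that CAMTA1 cells were collected at sub-confluence, and the labels give EVsub as sub-confluent. CAMTA1 was therefore compared with EVsub. All proteins were overexpressed and Flag-tagged, and the counts of TFE3 may include reads from the transgene. The study asked how the transcriptome of each fusion relates to that of the proteins from which it derives.

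MiT/TFE factors are basic helix-loop-helix leucine zipper proteins that bind the E-box letters CACGTG and switch on lysosomal, autophagy and metabolic genes. When amino acids are plentiful, Rag GTPases on the lysosome bring the factors to the kinase complex mTORC1, whose phosphorylation keeps them in the cytoplasm. Folliculin, with FNIP1 or FNIP2, is the GTPase-activating protein that sets RagC and RagD in the state in which they present MiT/TFE factors to the kinase. FLCN, FNIP1, FNIP2, RRAGC and RRAGD are known targets of the same factors, so that the arrangement is a feedback loop, and PPARGC1A is a known target that drives mitochondrial gene expression.

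Total counts lay between 19700277 and 35287476 per library, and mitochondrial genes took 3.20% to 6.36% of them. The third YAP-TFE3 library stood furthest from its replicates, with a chi-square per degree of freedom over genes of 67.8 and 53.5, where the pairs of all groups ranged from 3.15 to 67.8, and no pair agreed within sampling noise. WWTR1, the gene of TAZ, went against a label, with 134 ± 0.539 CPM (read counts relative to the TMM scaled library total; SD, n = 3) in the libraries labelled TAZ4SA against 204 ± 20.3 CPM with empty vector. YAP1 was at 253 ± 4.99 CPM with YAP5SA against 128 ± 12.5 CPM with empty vector, and CAMTA1 at 144 ± 7.14 CPM in TAZ-CAMTA1 and 124 ± 8.09 CPM in CAMTA1 cells, with group means of 19.4 to 26.1 CPM elsewhere. All 6 mesenchymal markers examined were at or above a mean of 1 CPM in every group, though their sum was lower in YAP-TFE3, at 1386 to 1544 CPM, than in EV, at 1846 to 1954 CPM, and VIM among them averaged 472 CPM, below the 804 CPM of EV (edgeR FDR = 4.46e-05). The markers did not move together, since PDGFRB averaged 488 CPM in YAP-TFE3 and 295 CPM in EV. The part of these markers in the results was not tested. ADIPOQ of adipocytes and SOX10 and TYR of melanocytes were at 0 counts in all 24 libraries. In bulk RNA, fewer cells that use a gene and less RNA per cell cannot be told apart.

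The promoter windows of these genes, 250 bases before to 50 after each start, were read from RefSeq (GRCh38.p14), which gave windows for 9 of the 10 genes, all but RRAGD. They are shown because the letters of the E-box are the known contact of the family. The 6 genes downstream of the factors all rose with YAP-TFE3, as described next, and the part of these letters in that rise was not tested. The capitals mark CACGTG, read on both strands, or CATGTG, a related E-box that MITF can bind, which reads CACATG on the other strand. Each line gives 30 bases on the gene's own strand, which is minus for FNIP1, RRAGC and PPARGC1A and plus for FNIP2. The upstream start of PPARGC1A lies outside the span that GENCODE release 44 gives for the gene.
FNIP1, motif at -175 from the start, chr5:131797175-131797204: ccccgcccctgcCACGTGacgggacccgcc
FNIP1, motif at -94, chr5:131797094-131797123: tccgcgcgccgcCACGTGatgcggcccccc
RRAGC, motif at -112, chr1:38859867-38859896: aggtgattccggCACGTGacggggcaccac
PPARGC1A, upstream start, motif at -123, chr4:24473011-24473040: agtcagcgcgccCACGTGacggccccggct
PPARGC1A, other start, motif at -129, chr4:23881213-23881242: gtgaatctgatcCATGTGtaaggaaaacag
FNIP2, motif at -142, chr4:158805685-158805714: ctgacactggctCACATGagagccattaag

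CACGTG stood in the single window of FNIP1, in that of RRAGC and in 1 of 2 windows of PPARGC1A. It stood in none of the windows of TFE3 and FLCN, with 1 window each, of TFEC and FNIP2, with 2 each, or of TFEB and MITF, with 3 each. Of all 35116 RefSeq windows of this length, 7.26% held CACGTG and 11.1% held CATGTG, shares that count windows and not genes. A match in these letters is a description of the sequence, and occupancy was not analysed here.

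Every tested gene of the circuit differed between YAP-TFE3 and EV, with 8 higher and 1 lower in YAP-TFE3. TFE3 was among the higher ones, and its counts may include transgene reads. All 9 of 9 tested genes passed edgeR's quasi-likelihood test at a false discovery rate (FDR, the Benjamini-Hochberg adjusted p over all genes tested) under 0.05, where 48.2% of the 19997 genes did, 25.6% higher and 22.6% lower. The median log2 fold change was 0.86 over the 9 genes and -0.01 over all genes tested. RRAGD rose 30.6-fold and PPARGC1A 21.7-fold, and the other 6 genes that rose did so by 1.57-fold to 2.37-fold. TFEB fell. The same 9 genes were called without the third YAP-TFE3 library, at log2 fold changes of 1.38 for TFE3, -1.08 for TFEB, 0.76 for MITF, 0.84 for FLCN, 0.83 for FNIP1, 0.79 for FNIP2, 1.001 for RRAGC, 4.84 for RRAGD and 4.48 for PPARGC1A.

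**Figure D1:**
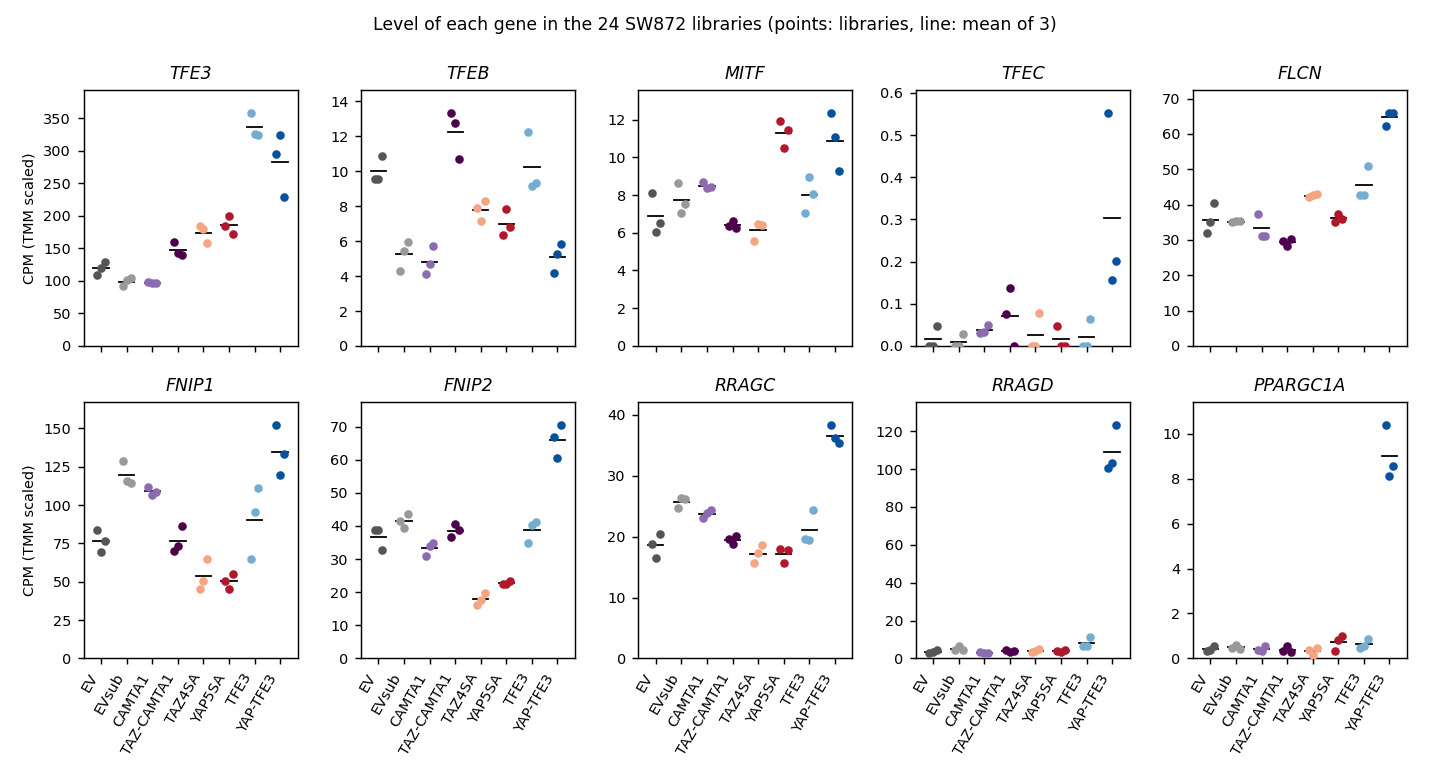
Level of the 10 genes in each of the 24 libraries, in TMM scaled CPM on axes that start at 0, with a point for each library and a line at the mean of the 3. The YAP-TFE3 libraries hold the highest 3 values of FLCN, FNIP2, RRAGC, RRAGD and PPARGC1A, and the second set with empty vector and the CAMTA1 libraries lie lowest for TFEB beside YAP-TFE3.

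The transcription factors are taken first. TFE3 (ENSG00000068323, chromosome X, 49028726 to 49043410, minus strand) was counted at 109, 120 and 129 CPM in EV, at 359, 326 and 324 CPM in TFE3 cells, and at 296, 325 and 228 CPM in YAP-TFE3 cells. Both sets of libraries that carried TFE3 sequence lay above EV, with log2 fold changes of 1.49 (SE 0.10, edgeR FDR = 8.31e-09) and 1.25 (SE 0.10, 7.23e-10). TFE3 was 1.19-fold lower with the fusion than with the full-length factor (log2 fold change -0.25, SE 0.10, edgeR FDR = 0.0482). That call was lost in 7 of 13 alternative fits, and without the third YAP-TFE3 library the log2 fold change was -0.12 (FDR = 0.305). The fusion holds only a part of TFE3, so a count of it is not the same measure of transcripts as a count of the full-length construct, and transgene and endogenous reads cannot be told apart.

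TFE3 was also higher in cells without a TFE3 construct. It lay at 185, 200 and 172 CPM in YAP5SA and at 184, 180 and 158 CPM in the libraries labelled TAZ4SA, above all 3 EV libraries. The log2 fold changes were 0.64 (SE 0.10, edgeR FDR = 2.16e-05) and 0.54 (SE 0.10, 0.000129). In order of the group means the levels ran 97.1 ± 1.26 CPM in CAMTA1, 99.1 ± 6.61 in EVsub, 119 ± 10.1 in EV, 147 ± 10.5 in TAZ-CAMTA1, 174 ± 14.3 in the libraries labelled TAZ4SA, 186 ± 13.98 in YAP5SA, 283 ± 49.6 in YAP-TFE3 and 336 ± 19.3 in TFE3. CAMTA1 and EVsub overlapped, as did TAZ-CAMTA1 with the libraries labelled TAZ4SA, these with YAP5SA, and YAP-TFE3 with TFE3.

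TFEB (ENSG00000112561, chromosome 6, 41683978 to 41736259, minus strand), the paralog best known for lysosome biogenesis, was counted at 9.56, 9.56 and 10.9 CPM in EV and at 4.19, 5.24 and 5.84 CPM in YAP-TFE3. All 3 fusion libraries lay below EV, at a log2 fold change of -0.97 (SE 0.16, edgeR FDR = 1.65e-05), or 1.96-fold lower. In TFE3 cells the values of 12.2, 9.13 and 9.31 CPM overlapped EV (log2 fold change 0.04, FDR = 1), and the fusion lay 2.00-fold below them (log2 fold change -1.002, SE 0.15, 9.11e-06). Of the 9 tested genes TFEB was the one that fell with YAP-TFE3. At sub-confluence EVsub, at 4.31, 5.45 and 5.96 CPM, overlapped the fusion libraries (log2 fold change -0.92 against EV, SE 0.16, edgeR FDR = 0.000105).

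MITF (ENSG00000187098, chromosome 3, 69739456 to 69968336, plus strand), the family member of melanocytes, stood at 8.11, 6.06 and 6.50 CPM in EV and at 12.4, 11.1 and 9.26 CPM in YAP-TFE3 (log2 fold change 0.66, SE 0.13, edgeR FDR = 0.000185). YAP5SA reached 11.9, 10.5 and 11.5 CPM (log2 fold change 0.71, SE 0.13, 0.000111). These 2 groups overlapped, and their difference was -0.05 (SE 0.13, FDR = 0.758). The summed level of 6 melanocyte markers was 12.2 to 14.9 CPM in YAP-TFE3, 25.3 to 26.5 CPM in YAP5SA and 13.4 to 17.1 CPM in EV. The markers did not move together. PMEL was at 6.54, 6.56 and 6.22 CPM in YAP-TFE3 against 0.725, 1.11 and 0.679 CPM with empty vector (log2 fold change 2.93, SE 0.30, edgeR FDR = 2.51e-08), whereas TYRP1 (-1.23, 3.80e-09) and DCT (-0.86, 0.00307) were lower. PMEL and TYRP1 each overlap an annotated gene on the opposite strand, and the strand setting of the counting is not given in the sources used here. The part of these markers in the MITF values was not tested.

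TFEC (ENSG00000105967, chromosome 7, 115935148 to 116159896, minus strand), a member used mainly by myeloid cells, had 17, 5 and 7 counts in the YAP-TFE3 libraries and 0, 0 and 1 in EV. No library of any other group exceeded 4 counts, and the 21 libraries outside YAP-TFE3 held 16 in all. The ratio of the summed rates was 22.6 (exact 95% interval 3.75 to 924), an interval that covers counting error only and rests on 1 EV count. Of 6 macrophage markers, whose summed level was 1.79 to 2.83 CPM in YAP-TFE3 and 1.35 to 1.94 CPM in EV, PTPRC had at most 1 count in any library, and CD163 had 4, 9 and 4 counts in YAP-TFE3 and 0, 0 and 1 in EV. Their part in the TFEC counts was not tested.

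Per kilobase of exon, TFE3 dominated the family in every group. It made up 92.1% ± 0.855 of the summed CPM per kb of the 4 genes in EV, 96.8% ± 0.0460 in TFE3 and 96.7% ± 0.462 in YAP-TFE3. The TFE3 counts of the TFE3 and YAP-TFE3 libraries may include transgene reads, and every share depends on the TFE3 level. In EV, TFEB followed with 4.83% ± 0.199 and MITF with 3.05% ± 0.696. In YAP-TFE3 MITF, at 2.12% ± 0.222, lay above TFEB, at 1.13% ± 0.364, and all 3 libraries kept that order. That order was not particular to the fusion, since mean MITF also lay above TFEB in EVsub (4.13% against 3.06%), CAMTA1 (4.58% against 2.88%) and YAP5SA (3.27% against 2.23%). The share of MITF was lower in YAP-TFE3 than in EV although its level was higher, at 1.47 CPM per kb against 0.929 CPM per kb.

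All 3 genes of the folliculin complex rose with the fusion. FLCN (ENSG00000154803, chromosome 17, 17212212 to 17237188, minus strand), the GTPase-activating subunit, stood at 31.9, 35.0 and 40.4 CPM in EV and at 62.3, 65.9 and 65.9 CPM in YAP-TFE3. The libraries did not overlap, and the log2 fold change was 0.86 (SE 0.09, edgeR FDR = 3.40e-08). FNIP1 (ENSG00000217128, chromosome 5, 131641714 to 131797017, minus strand) went from 83.7, 69.4 and 76.4 CPM to 152, 119 and 133 CPM (log2 fold change 0.82, SE 0.15, 6.65e-05). For FNIP1 the EVsub libraries, at 129, 116 and 114 CPM, overlapped those of the fusion. FNIP2 (ENSG00000052795, chromosome 4, 158769026 to 158908050, plus strand) went from 38.7, 38.8 and 32.6 CPM to 66.8, 60.4 and 70.4 CPM (log2 fold change 0.84, SE 0.09, 6.44e-08). The 3 folds were 1.81, 1.76 and 1.79, and on the log2 scale they differed by less than their standard errors. Another gene annotated on the same strand overlaps exons of FLCN and took 1 to 8 counts per library.

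With full-length TFE3 none of the 3 genes passed the test. FLCN was at 42.8, 42.7 and 50.8 CPM in TFE3 cells, all above EV, yet the log2 fold change of 0.35 (SE 0.09) had an unadjusted p of 0.000795 and an edgeR FDR of 0.506. FNIP1 was at 64.7, 95.5 and 111 CPM and FNIP2 at 34.9, 40.2 and 41.1 CPM, and both overlapped EV. In the direct comparison the fusion exceeded TFE3 cells by log2 fold changes of 0.51 for FLCN (SE 0.09, edgeR FDR = 4.72e-05), 0.58 for FNIP1 (SE 0.15, 0.00223) and 0.77 for FNIP2 (SE 0.09, 2.63e-07).

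With YAP5SA and in the libraries labelled TAZ4SA the FNIP genes moved the other way. FNIP2 was at 22.5, 22.4 and 23.2 CPM in YAP5SA (log2 fold change -0.69, SE 0.10, edgeR FDR = 2.22e-06) and at 16.2, 17.7 and 19.7 CPM in the libraries labelled TAZ4SA (-1.04, SE 0.10, 3.94e-09). FNIP1 was at 50.8, 45.2 and 54.8 CPM and at 45.5, 50.3 and 65.0 CPM (log2 fold changes -0.61 and -0.51, FDR = 0.00196 and 0.00637). All of these values lay below the EV libraries of the same gene. FLCN was not called lower, at 35.0, 37.4 and 36.0 CPM in YAP5SA (log2 fold change 0.02, FDR = 0.901) and 42.1, 42.6 and 42.9 CPM in the libraries labelled TAZ4SA (0.25, 0.0243). The last call was lost in 7 of 13 alternative fits, and the log2 fold change was 0.06 under total-count scaling, under which the median of all genes fell by 0.198 in that comparison. YAP-TFE3 exceeded YAP5SA for both FNIP genes, with log2 fold changes of 1.42 (SE 0.15, edgeR FDR = 2.75e-08) for FNIP1 and 1.53 (SE 0.10, 3.54e-12) for FNIP2.

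Among the 9 genes RRAGD had the largest change. RRAGD (ENSG00000025039, chromosome 6, 89364616 to 89412273, minus strand), the gene of RagD, was counted at 2.97, 3.28 and 4.56 CPM in EV and at 101, 103 and 123 CPM in YAP-TFE3. In raw counts this was 86 to 94 per EV library and 3093, 3291 and 4256 per fusion library. The log2 fold change was 4.94 (SE 0.20, edgeR FDR = 2.73e-15), or 30.6-fold, and 4.84 without the third fusion library. RRAGD ranked 108 of 19997 genes by log2 fold change, PPARGC1A 148 and the next gene of the circuit, TFE3, 1665.

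RRAGC (ENSG00000116954, chromosome 1, 38838198 to 38859772, minus strand), its paralog, stood at 18.8, 16.6 and 20.5 CPM in EV and 38.3, 36.2 and 35.3 CPM in YAP-TFE3 (log2 fold change 0.98, SE 0.10, edgeR FDR = 1.69e-08). The order of the paralogs differed between the groups. On the scale of CPM per kb, the ratio of RRAGD to RRAGC was 0.193 ± 0.0327 in EV and 3.00 ± 0.445 in YAP-TFE3 (SD, n = 3), and it lay between 0.117 and 0.470 in all 21 libraries outside YAP-TFE3. FNIP2 to FNIP1, the other pair of paralogs, stood at 0.347 ± 0.0492 in EV and 0.353 ± 0.0329 in YAP-TFE3, with overlapping libraries.

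**Figure D2:**
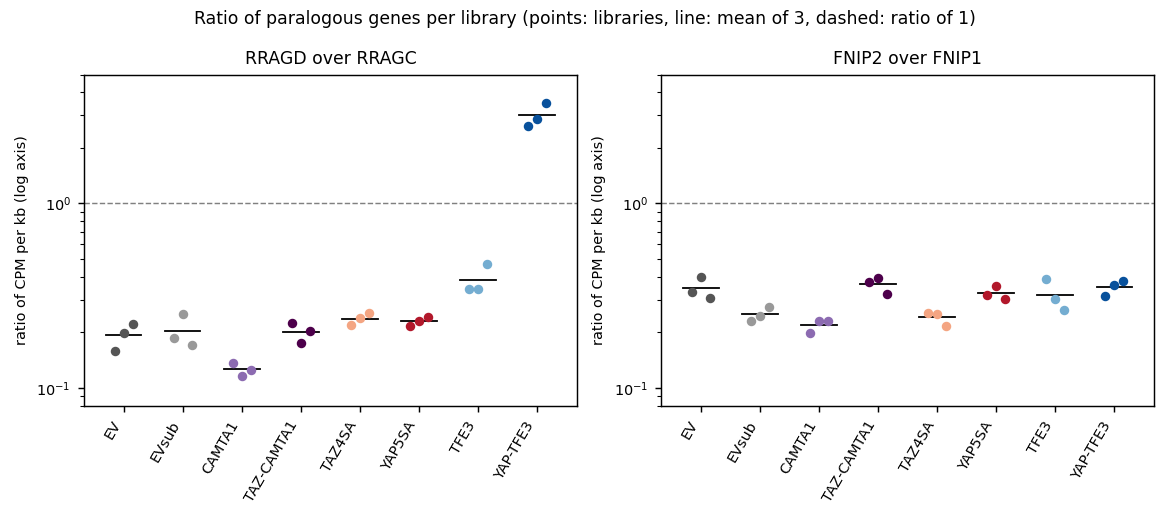
Ratio of RRAGD to RRAGC (left) and of FNIP2 to FNIP1 (right) in each library, as CPM per kb of exon on a log axis, with a point for each library, a line at the mean of the 3 and a dashed line at 1. RRAGD exceeded RRAGC in the 3 YAP-TFE3 libraries, with 2.64 to 3.50, and in no other library, while FNIP1 exceeded FNIP2 in all 24.

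RRAGD was also the gene beside TFE3 itself that passed the test in TFE3 cells. It was at 6.72, 6.69 and 11.4 CPM there, above all 3 EV libraries (log2 fold change 1.21, SE 0.20, edgeR FDR = 0.0143). Of the 9 tested genes 2 were called in TFE3 cells, where 0.035% of genes were, all 7 of them higher, and 3 had an unadjusted p under 0.05 where 3.79% of genes did. The RRAGD call was lost in 4 of 13 alternative fits, though the log2 fold change stayed positive. Without the first EV library it was 1.09 (SE 0.23, FDR = 0.389) and without the second 1.15 (SE 0.23, 0.275). Without the third TFE3 library it was 0.91 (SE 0.18, 0.203). With the other groups left out of the fit it was 1.22 (SE 0.23, 0.341). By non-overlapping libraries 3 of the 9 genes, TFE3, FLCN and RRAGD, stood apart from EV in TFE3 cells, where 8.65% of genes did. Each of these numbers of genes takes in TFE3 itself, whose counts may include transgene reads.

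Between the fusion and the full-length factor RRAGD differed 13.2-fold (log2 fold change 3.72, SE 0.19, edgeR FDR = 9.75e-14). RRAGC was 1.73-fold higher with the fusion than with TFE3 (log2 fold change 0.79, SE 0.10, 3.65e-07), where the TFE3 libraries, at 19.6, 19.5 and 24.3 CPM, overlapped EV. All 9 genes passed the test in this comparison, 7 higher and 2 lower, where 48% of genes did, 25.4% higher and 22.5% lower. Their median log2 fold change was 0.58, with -0.02 over all genes. TFE3, whose counts may include transgene reads in both groups, was among the lower ones. Without the third fusion library 8 were called, all but TFE3, with 3.63 for RRAGD.

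With YAP5SA and in the libraries labelled TAZ4SA neither Rag gene passed the test. RRAGD was at 3.87, 3.62 and 4.34 CPM in YAP5SA (log2 fold change 0.15, SE 0.22, edgeR FDR = 0.599) and at 3.46, 4.12 and 4.71 CPM in the libraries labelled TAZ4SA (0.20, SE 0.21, 0.448), and both overlapped EV. RRAGC had log2 fold changes of -0.11 in each, which were called lower under total-count scaling (-0.30 and -0.31, FDR = 0.0332 and 0.0253). In order of the means RRAGD ran 2.98 ± 0.183 CPM in CAMTA1, 3.60 ± 0.842 in EV, 3.93 ± 0.573 in TAZ-CAMTA1, 3.94 ± 0.367 in YAP5SA, 4.10 ± 0.626 in the libraries labelled TAZ4SA, 5.22 ± 1.18 in EVsub, 8.27 ± 2.70 in TFE3 and 109 ± 12.3 in YAP-TFE3. Neighbours in that order overlapped up to EVsub, while the TFE3 and YAP-TFE3 libraries each lay above all those before them.

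PPARGC1A (ENSG00000109819, chromosome 4, 23755041 to 23904089, minus strand) was barely expressed without the fusion. Its 10, 10 and 11 counts in EV corresponded to 0.345, 0.381 and 0.533 CPM, and in YAP-TFE3 it reached 10.4, 8.10 and 8.56 CPM from 258 to 319 counts. The log2 fold change was 4.44 (SE 0.29, edgeR FDR = 1.07e-11), or 21.7-fold. In all 21 other libraries it lay at or under 1.00 CPM, the highest value being in YAP5SA, at 0.331, 0.809 and 1.00 CPM (log2 fold change 0.81, SE 0.38, FDR = 0.0838). Without the first YAP5SA library that difference was 1.14 and passed the test (FDR = 0.0139). TFE3 cells, at 0.468, 0.542 and 0.846 CPM, overlapped EV, and the fusion lay 14.6-fold above them (log2 fold change 3.87, SE 0.26, 2.01e-11). The mean of PPARGC1A outside YAP-TFE3 was 13.0 counts per library, above the minimum of 5, and all 9 tested genes passed that minimum without the YAP-TFE3 libraries. The 6 adipocyte markers summed to 304 to 370 CPM in YAP-TFE3, 149 to 223 CPM in EV and 185 to 237 CPM in TFE3 cells. Most of the sum came from LPL and PPARG, at means of 257 and 87.3 CPM in YAP-TFE3 against 140 and 46.8 CPM in EV. PLIN1 averaged 0.728 CPM in YAP-TFE3 and 0.690 CPM in EV. FABP4 had 23, 21 and 17 counts in YAP-TFE3 and at most 1 in any other library, and ADIPOQ had 0 throughout. Summed epithelial markers were at 247 to 355 CPM in YAP-TFE3 and 206 to 221 CPM in EV, and endothelial ones at 84.5 to 95.8 CPM and 115 to 154 CPM. Most of the epithelial sum came from KRT8 and KRT18, and CLDN4 averaged 2.84 CPM in YAP-TFE3 against 7.29 CPM in EV. The part of these markers in the changes of the circuit genes was not tested.

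YAP5SA changed 5 of the 9 tested genes against EV, 2 higher and 3 lower, where 44.3% of genes were called, 22.7% higher and 21.6% lower. TFE3 and MITF were the higher and TFEB, FNIP1 and FNIP2 the lower ones. TFEB was at 6.33, 7.85 and 6.79 CPM (log2 fold change -0.51, SE 0.16, edgeR FDR = 0.00980), below all 3 EV libraries. In the libraries labelled TAZ4SA 4 of the 9 were called, 2 higher and 2 lower, where 49.2% of genes were called, 25.1% higher and 24.2% lower. There TFEB, at 7.92, 7.13 and 8.30 CPM, lay below the EV libraries without a call (log2 fold change -0.36, FDR = 0.0579), and total-count scaling called it lower (-0.55, 0.00360) together with MITF (-0.37, 0.0355). Both counts of genes lay near the shares of all genes. Epithelial markers, summed over 6 genes, lay at 206 to 221 CPM in EV. They lay at 3018 to 4029 CPM in YAP5SA and at 1893 to 2163 CPM in the libraries labelled TAZ4SA. Most of the sum came from KRT8 and KRT18, at means of 2157 and 1414 CPM in YAP5SA against 47.3 and 158 CPM in EV. CLDN4 averaged 4.54 CPM in YAP5SA against 7.29 CPM in EV. The part of these markers in these changes was not tested.

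Directly against YAP5SA, YAP-TFE3 differed in 8 of the 9 genes, 7 higher and 1 lower, where 52.4% of genes were called, 28.1% higher and 24.3% lower. The median log2 fold change of the 9 was 1.09, with 0.05 over all genes. TFE3, whose counts may include transgene reads, was among the higher ones. RRAGD was 27.5-fold higher (log2 fold change 4.78, SE 0.20, edgeR FDR = 5.12e-15) and PPARGC1A 12.3-fold (3.63, SE 0.27, 7.72e-11). TFEB was the lower gene (log2 fold change -0.45, SE 0.16, 0.0203), a call that was lost in 4 of 13 alternative fits. The comparisons of YAP-TFE3, TFE3, YAP5SA, TAZ4SA, TAZ-CAMTA1 and EVsub with EV share the EV libraries, and those with YAP-TFE3 share its libraries.

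**Figure D3:**
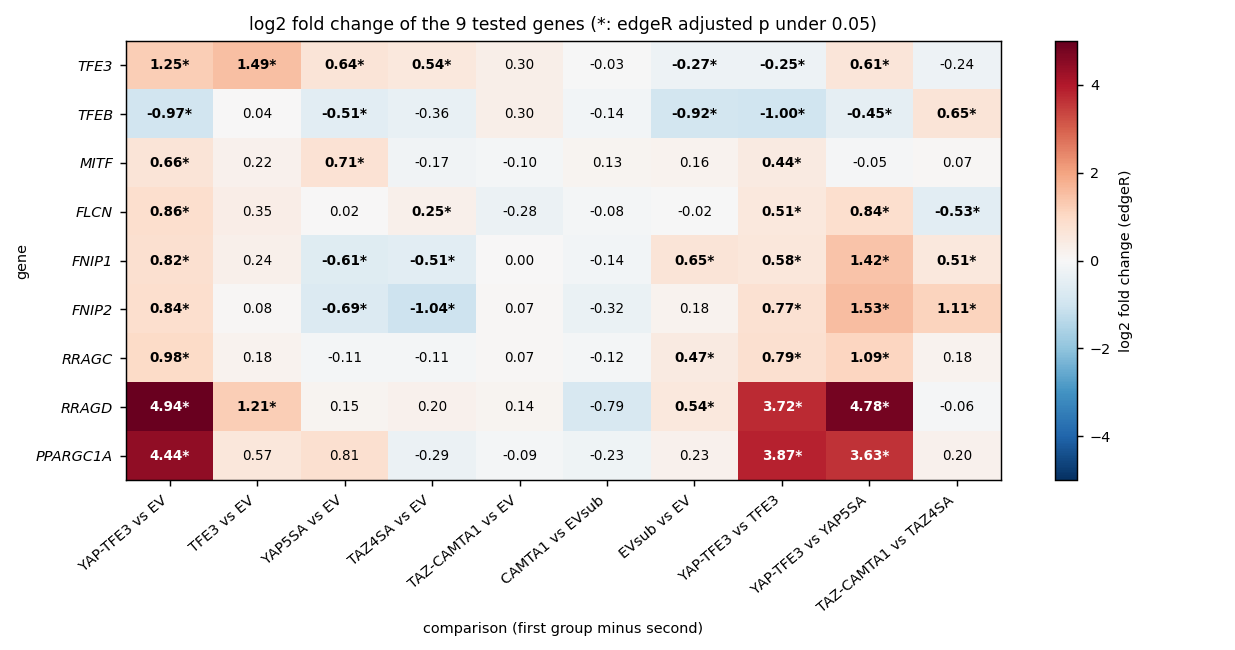
Log2 fold change of the 9 tested genes (rows) in the 10 comparisons (columns, first group minus second), coloured on a symmetric scale with the value in each cell and an asterisk where the edgeR FDR was under 0.05. RRAGD and PPARGC1A stand out in the 3 columns where YAP-TFE3 comes first, at 3.63 to 4.94, and no gene is called for TAZ-CAMTA1 against EV or for CAMTA1 against EVsub.

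No gene of the circuit was called for TAZ-CAMTA1 against EV or for CAMTA1 against EVsub. For TAZ-CAMTA1 against EV 0 of 9 genes passed the edgeR test, where 4.98% of genes did, 2 had an unadjusted p under 0.05 where 17.9% of genes did, and DESeq2 called 1, FLCN. FLCN was at 29.7, 28.2 and 30.4 CPM, below the EV libraries (log2 fold change -0.28, SE 0.09, edgeR FDR = 0.0823). RRAGD, at 4.40, 3.29 and 4.09 CPM, and PPARGC1A, at 0.341, 0.548 and 0.277 CPM, overlapped EV. For CAMTA1 against EVsub 0 of 9 passed, where 1.83% of genes did, 2 had an unadjusted p under 0.05 where 12.4% of genes did, and DESeq2 called 2, RRAGD and FNIP2, both lower. RRAGD was at 3.13, 2.78 and 3.05 CPM in CAMTA1 and at 4.58, 6.58 and 4.49 CPM in EVsub, a difference of -0.79 on the log2 scale (SE 0.21, edgeR FDR = 0.0503), and it was called in 5 of 13 alternative fits.

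Directly against the libraries labelled TAZ4SA, TAZ-CAMTA1 differed in 4 of the 9 genes, 3 higher and 1 lower, where 53.7% of genes were called, 26.9% higher and 26.8% lower. FNIP2, at 36.6, 40.6 and 38.6 CPM, was 2.16-fold higher (log2 fold change 1.11, SE 0.10, edgeR FDR = 1.18e-09), and FNIP1 and TFEB were higher by 0.51 and 0.65 on the log2 scale. FLCN was lower (log2 fold change -0.53, SE 0.09, 3.17e-05). Total-count scaling raised the median of all genes by 0.198 here and added RRAGC to the calls (0.38, FDR = 0.00664). Summed epithelial markers were at 408 to 517 CPM in TAZ-CAMTA1 and 1893 to 2163 CPM in the libraries labelled TAZ4SA, endothelial ones at 143 to 192 CPM and 42.2 to 64.3 CPM, and their part in these differences was not tested. The epithelial sums came mostly from KRT8 and KRT18. VWF alone of the endothelial list went the other way, at a mean of 1.84 CPM in TAZ-CAMTA1 against 5.66 CPM in the libraries labelled TAZ4SA.

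Empty-vector cells collected at sub-confluence differed from confluent ones in several of these genes. EVsub differed in 5 of the 9 genes, 3 higher and 2 lower, where 36.8% of genes were called, 19.8% higher and 17.1% lower. FNIP1 was at 129, 116 and 114 CPM (log2 fold change 0.65, SE 0.15, edgeR FDR = 0.00153) and RRAGC at 24.7, 26.4 and 26.2 CPM (0.47, SE 0.10, 0.000786), and both lay above all EV libraries. RRAGD, at 4.58, 6.58 and 4.49 CPM, overlapped EV and was called at an FDR of 0.0449, and TFE3, at 91.7, 101 and 104 CPM, at 0.0458. Those calls were lost in 4 and 6 of 13 alternative fits, whereas TFEB, lower by 0.92 on the log2 scale, kept its call in all 13. Endothelial markers summed to 43.9 to 67.9 CPM and epithelial ones to 421 to 450 CPM in EVsub, against 115 to 154 CPM and 206 to 221 CPM in EV, and their part was not tested. Here too the epithelial sums were mostly KRT8 and KRT18. Among the endothelial markers VWF alone was higher, at a mean of 2.62 CPM in EVsub against 1.71 CPM in EV.

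The rest of the pathway was examined through 53 genes in 5 lists, of which 52 were tested. The lists were chosen for their known place around the circuit, with earlier results of these data known. With YAP-TFE3, 29 of the 52 were called, 16 higher and 13 lower, or 55.8% where 48.2% of all genes were, and their median log2 fold change of -0.02 lay beside -0.01 over all genes. In TFE3 cells 0 of 52 passed the edgeR test, where 0.035% of all genes did. An unadjusted p under 0.05 was found for 2, where 3.79% of all genes had one. The log2 fold changes of the 52 genes lay between -0.20 and 0.22. The share called in YAP-TFE3 thus lay near that of all genes, with falls beside rises.

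Among the Rag and Ragulator partners, which hold the Rag heterodimers on the lysosome, 1 of 8 genes was called with YAP-TFE3. That was 12.5%, where 48.2% of all genes were called. The called gene was RRAGB, named after its values were seen, the gene of RagB, which pairs with RagC or RagD. It rose from 11.8, 12.6 and 12.4 CPM to 17.98, 17.2 and 21.8 CPM (log2 fold change 0.63, SE 0.11, edgeR FDR = 2.95e-05). In YAP5SA and in the libraries labelled TAZ4SA 4 of the 8 were called, all lower, RRAGB among them at -0.49 and -0.51, so 50% were called lower where 21.6% and 24.2% of all genes were. With so few genes these shares are a description only. Of 9 genes of mTORC1 and its TSC-Rheb switch, 3 rose and 3 fell with YAP-TFE3, or 66.7% where 48.2% of all genes were called.

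Of 17 genes of GATOR, KICSTOR and the amino acid sensors, the complexes that report amino acids to the Rag GTPases, 3 rose and 7 fell with YAP-TFE3, at a median log2 fold change of -0.25, so 58.8% were called where 48.2% of all genes were. SESN2, a leucine sensor, rose from 24.2, 28.1 and 40.05 CPM to 104, 113 and 40.3 CPM (log2 fold change 1.48, SE 0.25, edgeR FDR = 2.40e-05). The third fusion library lay beside the highest EV library, and without it the log2 fold change was 1.82. KICS2, a KICSTOR subunit that helps to hold GATOR1 on the lysosome, rose from 6.59, 5.79 and 5.87 CPM to 17.1, 17.3 and 12.3 CPM (1.35, SE 0.12, 3.32e-09).

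Of 11 genes of calcineurin, the lysosomal calcium channel MCOLN1 and AMPK, which promote nuclear MiT/TFE, 7 rose and 1 fell with YAP-TFE3, where 2 rose and 1 fell with YAP5SA and 0 passed with TFE3. Called genes made up 72.7%, 27.3% and 0% of the list, where 48.2%, 44.3% and 0.035% of all genes were called, and the difference between the groups was not tested. In YAP-TFE3 6 of the 11 had libraries that did not overlap EV. The share of all genes that did so was not computed for that comparison, so this number is a description only. PRKAA2, a catalytic subunit of AMPK, rose from 3.11, 2.40 and 2.86 CPM to 10.4, 9.80 and 7.29 CPM (log2 fold change 1.71, SE 0.25, edgeR FDR = 3.36e-06). MCOLN1, named after its values were seen, rose from 11.98, 15.4 and 17.0 CPM to 19.9, 19.6 and 22.4 CPM (0.49, SE 0.11, 0.000814), and it overlaps genes annotated on the same strand. Among the 7 tested relatives and partners of PGC-1alpha 2 rose and 2 fell with YAP-TFE3, or 57.1% where 48.2% of all genes were called. PPARGC1B, the paralog of PPARGC1A, named after its values were seen, was higher by 0.64 (SE 0.11, edgeR FDR = 3.92e-05), against 4.44 for PPARGC1A.

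The largest changes of the pathway in YAP5SA and in the libraries labelled TAZ4SA were in other genes. SESN3, a further sestrin, fell from 25.3, 22.8 and 23.7 CPM in EV to 2.98, 3.24 and 4.70 CPM in YAP5SA (log2 fold change -2.71, SE 0.19, edgeR FDR = 4.17e-11) and to 2.81, 2.62 and 3.94 CPM in the libraries labelled TAZ4SA (-2.93, SE 0.19, 1.27e-11), whereas in YAP-TFE3 it was at 22.8, 19.8 and 22.5 CPM. DEPTOR, an inhibitor within the mTOR complexes, fell by 2.51 and 2.39 on the log2 scale, and PRKAG2, a regulatory subunit of AMPK, rose by 2.22 and 2.33. At sub-confluence EVsub had DEPTOR lower by 1.70, SESN2 lower by 1.19 and PRKAG2 higher by 1.07. SESN3, DEPTOR and PRKAG2 each overlap an annotated gene on the opposite strand, and the strand setting of the counting is not given in the sources used here. These counts were 24 of 52 genes in YAP5SA, 25 in the libraries labelled TAZ4SA and 24 in EVsub, or 46.2%, 48.1% and 46.2%, where 44.3%, 49.2% and 36.8% of all genes were called.

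TAZ-CAMTA1 had 0 of the 52 pathway genes called against EV by the edgeR test, where 4.98% of all genes were. At an unadjusted p under 0.05 there were 10, where 17.9% of all genes were, and DESeq2 called 1. CAMTA1 had 1 called against EVsub, or 1.92% where 1.83% of all genes were. It was PPARGC1B, at 19.1, 19.4 and 18.1 CPM in CAMTA1 and 13.9, 13.8 and 13.01 CPM in EVsub, with a log2 fold change of 0.48 (SE 0.11, edgeR FDR = 0.0185), a call that was lost in 6 of 13 alternative fits. Directly against the libraries labelled TAZ4SA, TAZ-CAMTA1 differed in 25, or 48.1% where 53.7% of all genes did, with 11 higher and 14 lower, led by SESN3 (log2 fold change 2.93), DEPTOR (2.38) and PRKAG2 (-1.91). YAP-TFE3 differed from YAP5SA in 26, or 50% where 52.4% of all genes did, with 15 higher and 11 lower, led by SESN3 (2.56), DEPTOR (1.71) and PRKAA2 (1.24). It differed from TFE3 in 29, or 55.8% where 48% of all genes did, with 17 higher and 12 lower, led by PRKAA2 (1.63), SESN2 (1.57) and PRKAG2 (1.31).

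**Figure D4:**
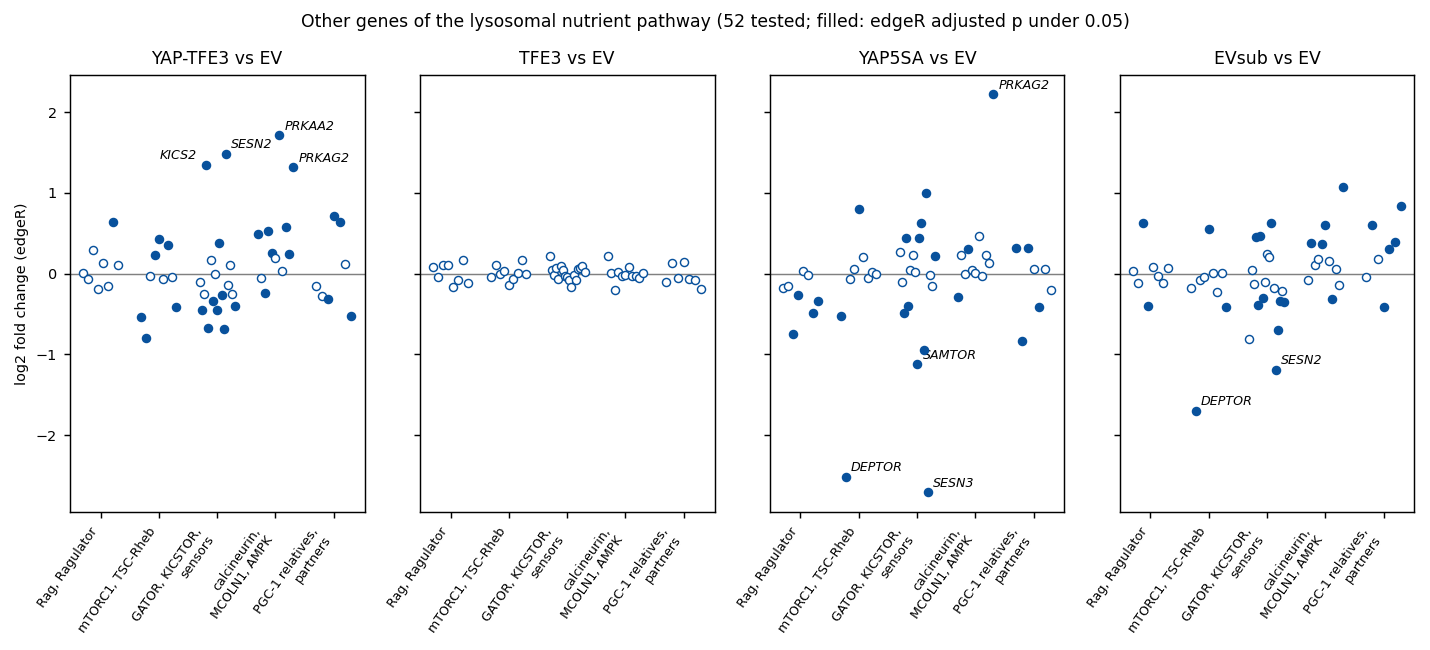
Log2 fold change of the 52 tested pathway genes, 1 point a gene in columns by list, for YAP-TFE3, TFE3, YAP5SA and EVsub against EV, filled where the edgeR FDR was under 0.05 and with names beside called genes beyond 1.1 in either direction. No point is filled for TFE3, and in YAP-TFE3 most filled points of the calcineurin, MCOLN1 and AMPK list lie above 0.

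Genes outside the circuit whose pattern was most like those of RRAGD, FLCN and PPARGC1A were found by Pearson's r over the 8 group means of log2 CPM, among protein-coding genes averaging 100 or more counts. For RRAGD these were MAT1A, a methionine adenosyltransferase, at r = 0.996, CTNS, the lysosomal cystine exporter, at 0.989, and IGF2R, a sorting receptor of lysosomal enzymes, at 0.984. For FLCN they were TPP1, a lysosomal peptidase, at 0.983, SLC66A1, a lysosomal amino acid exporter, at 0.977, and CYB5RL at 0.961. For PPARGC1A they were ADH5, an alcohol dehydrogenase that handles formaldehyde, at 0.989, TSTD2 at 0.987 and GCAT, an enzyme of threonine breakdown, at 0.986. The 8 points share their scaling, and for RRAGD and PPARGC1A the YAP-TFE3 mean stands far from the other 7, so that these values describe mainly that group.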

How the data were processed

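RNA from 24 SW872 libraries was sequenced after a stranded, poly(A)-selected preparation. The authors aligned paired reads to hg38 with Hisat2 within bcbio-nextgen, and deposited 1 table of raw gene counts per library. The authors also ran Salmon with tximport, and which tool made the deposited counts, and with which strand setting, is not given in the sources used here. The deposited counts are whole numbers and were not normalized.

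Groups were taken from the labels. Counts were fitted with edgeR 4.0.16 in R 4.3.3 (quasi-likelihood test, TMM scaling, 1 mean per group over all 24 libraries, genes averaging 5 or more counts), with Benjamini-Hochberg adjustment over all genes tested and a threshold of 0.05. CPM are edgeR's counts relative to the TMM scaled library total, and per kb values divide by the exon length of GENCODE release 44. That release held 56104 of the 60279 identifiers and gave the coordinates, on GRCh38. A standard error is the absolute log2 fold change divided by the square root of F. The fit was tested on simulated counts. Total counts of 19700277 to 35287476 per library set the precision, and the interval for TFEC covers counting error only.

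The alternatives were DESeq2 1.42.0, its size factors in edgeR, total-count scaling, no filter, edgeR's own filter, a replicate block, a fit of only the groups compared, and leaving out each library in turn. The members and lists were chosen with earlier results of these data known. All 10 members were named in the text, with, per comparison, the 3 called pathway genes of largest absolute log2 fold change, the construct genes, and for RRAGD, FLCN and PPARGC1A the 3 genes of highest Pearson's r over the 8 group means. Other pathway genes are marked in the text where named, and single markers were named after their values were seen.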

Additional observations from a re-analysis of the deposited data

How the results depend on the processing

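Of 1170 values, 13 alternatives for each of the 9 tested genes in 10 comparisons, 1115 kept their side of the threshold, 33 lost the call, 22 gained it and 0 changed sign with a call in either fit (uncalled values could change sign, as FLCN in YAP5SA against EV, from -0.17 to 0.11), and for YAP-TFE3 against EV all 9 genes stayed called in every alternative. For TFE3 against EV the count of called circuit genes was 1 with only the 2 groups compared and 1 to 2 with a library left out (1 without EV replicate 1 or 2 or TFE3 replicate 3), and that of all genes, 7, became 15 with DESeq2, 40 with no filter, 2 with only the 2 groups and 1 to 12 with a library left out. For TAZ-CAMTA1 against EV, the count of circuit genes was 1 with DESeq2 and 0 to 1 with a library left out, that of pathway genes 1 with DESeq2, 2 with no filter and 2 with only the 2 groups, and that of all genes, 996, ran from 545 to 884 with a library left out. For CAMTA1 against EVsub the count of circuit genes was 2 with DESeq2, 1 with no filter, 1 with edgeR's own filter and 2 with only the 2 groups, that of pathway genes 0 with no filter, 2 with only the 2 groups and 0 to 2 with a library left out, and that of all genes 652 with no filter, 648 with only the 2 groups and 177 to 447 with a library left out. For EVsub against EV 3 to 4 circuit genes were called with a library left out, and for YAP-TFE3 against TFE3 19 pathway genes with only the 2 groups. The cause of these changes was not tested.

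Replicate numbers did not pair the libraries, since no comparison had all 3 correlations of same-numbered deviations over 0.1 (range -0.300 to 0.216). With the replicate block 1 circuit gene was called for CAMTA1 against EVsub, RRAGD (log2 fold change -0.78, edgeR adjusted p = 0.0269), and TFE3 was called for TAZ-CAMTA1 against the libraries labelled TAZ4SA (0.0471). PPARGC1A had 4 to 26 counts in libraries outside YAP-TFE3, which limits the precision of its values there.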
